A study of Mus musculus with 7 samples.

Results

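Immediate-early and early response genes were examined in long-term haematopoietic stem cells (LT-HSCs) of mice with and without endomucin. The group comprised 33 genes chosen by their symbols: AP-1, EGR, NR4A and KLF transcription factors, immediate-early response (IER) genes, DUSP phosphatases and other feedback regulators, and the anti-proliferative BTG, TOB and GADD45 genes. All 33 were found, each on 1 row, among the 54347 genes of the count table, and 30 of them passed the filter on low counts, as did 15372 genes in all. Egr2, Egr3 and Ccn1 did not pass.

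The cells were sorted from bone marrow of female C57BL/6N mice from the line with the em1(IMPC)Wtsi allele of EMCN (WtsiH stock), which the labels give for both genotypes: Emcn-/- mice (KO, 3 animals) and their Emcn+/+ littermates (WT, 4 animals). Emcn encodes the sialomucin endomucin. The sources used here do not give the age of the mice or the part of the gene removed. Each library came from 1 mouse and is named by genotype and mouse number: wt_284, wt_290, wt_310, wt_312, ko_306, ko_314 and ko_320. The comparison asks which transcripts of LT-HSCs differ when Emcn is missing.

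Immediate-early genes are transcribed within minutes of a signal, without new protein synthesis, because factors such as SRF, its ELK partners and CREB already sit at their promoters and are switched on by MAP kinases. Their products act in layers: AP-1, EGR, NR4A and KLF proteins drive a second wave of transcription, while DUSP phosphatases, ZFP36, SOCS3 and PPP1R15A switch the signal or its products off. In haematopoietic stem cells several of them, among them Egr1, Nr4a1, Btg2 and the AP-1 factors, are known from work on quiescence, and many of them are also known to respond to handling of cells during tissue dissociation and sorting.

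The libraries held 6444134 to 11101774 counts, and Emcn read 15.8 CPM in wt_284, 27.7 to 34.1 CPM in the remaining WT mice, and 0 to 0.0861 CPM in KO mice. CPM are counts per 1000000 counts of a library, with TMM factors applied to the total. One library stood apart before any comparison of genotype. Neutrophil and monocyte markers (20 genes, 19 tested) summed to 16236 CPM in wt_284, from 279 to 1410.0 CPM in the remaining WT libraries and from 224 to 764 CPM in KO. All 19 tested ones were at least 2 times higher in wt_284 than in any other library, against 4.64% of all tested genes. Of the 19, Ly86 did not pass the filter without wt_284, so its high level there was favoured by the filter. Erythroid markers (13 of 14 genes found) summed to 3088 CPM in wt_284, from 549 to 1188 CPM in the remaining WT libraries and from 590.4 to 743 CPM in KO, and mast cell and basophil markers (7 genes) to 214 CPM in wt_284, from 10.5 to 38.1 CPM in the remaining WT libraries and from 0.746 to 12.6 CPM in KO. Markers of the labelled cell type (12 genes) were detected in every library and summed to 1650.1 CPM in wt_284, from 2484 to 2786 CPM in the remaining WT libraries and from 2509 to 2762 CPM in KO. The results that follow are given with wt_284 shown apart. In these bulk libraries, more cells of a type and more RNA per cell cannot be told apart.

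Most early response genes were highest in wt_284. In the 6 other libraries single genes spanned from 1.24-fold (Ier2) to 8.95-fold (Btg2) and 20.8-fold (Nr4a2), leaving aside genes with a count of 0 there. The summed level of the 33 genes was 3089 CPM in wt_284, 1086, 1266 and 1261 CPM in wt_290, wt_310 and wt_312, and 1012, 1099 and 1071 CPM in ko_306, ko_314 and ko_320. wt_284 was the highest of the 7 libraries for 28 of 30 tested members, against 23.1% of all tested genes, and stood at least 2 times above every other library for 16 members, against 4.64% of all tested genes. The exceptions were Dusp2, highest in ko_314, and Nr4a2, highest in ko_320. Atf3 and Nr4a3, part of the 28 and of the 16, did not pass the filter without wt_284, so their high level in it was favoured by the filter. These counts describe 1 library of 1 mouse and are no comparison of genotypes. The sum averaged 1204 ± 103 CPM over the 3 WT mice other than wt_284 (SD, n = 3), 1675 ± 946 CPM over all 4 WT mice (SD, n = 4), and 1061 ± 44.2 CPM over the KO mice (SD, n = 3). Whether the genotypes overlapped in this sum depended on the scaling: with TMM factors ko_314 lay just above wt_290, whereas with plain library totals the KO libraries (1042 to 1108 CPM) all lay below the lowest WT library (wt_290, 1114 CPM). Without Jun, the most abundant member, the TMM-scaled sums did not overlap either, with 741 to 789.8 CPM in KO and 826 CPM in wt_290, the lowest WT library. No test was made of this sum.

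**Figure D1:**
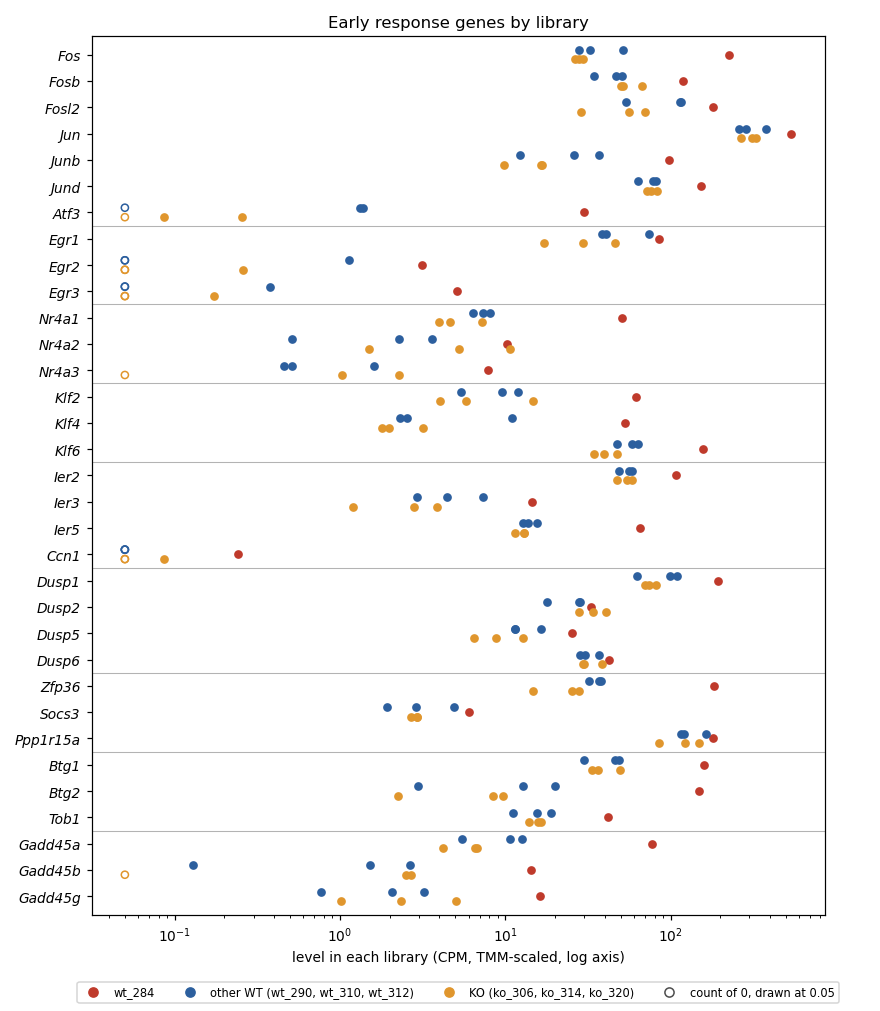
Level of each early response gene in each library (CPM on a log axis), grouped by role between grey lines, with wt_284 in red, the other WT libraries in blue, KO libraries in orange and counts of 0 as open circles at 0.05. wt_284 lies to the right of all other points for most genes, whereas blue and orange points mostly interleave.

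None of the early response genes was called between genotypes. In edgeR's quasi-likelihood test 0 of 30 tested members had an adjusted p under 0.05, beside 0.00651% of all 15372 tested genes, and every member had an adjusted p of 0.992. At an unadjusted p under 0.05 there were 4 members with lower KO values (Fosl2, Atf3, Egr1 and Klf6), which is 13.3% of the members against 1.99% of all tested genes, and 0 with higher KO values, against 1.28%. Negative log2 fold changes (KO minus WT) were found for 28 of 30 members, against 52.4% of all tested genes, with a median of -1.003 beside -0.019 over all genes. Atf3 had reached the filter level, 1.24 CPM, only in WT libraries, so its direction was set by the filter.

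Without wt_284 most estimates lay nearer to 0. In that fit 28 members were tested, 20 had negative and 8 had positive log2 fold changes, and the median was -0.18. Negative values made up 71.4% of the members and 49.9% of all 14897 genes tested then. Again 0 members passed (adjusted p of 0.999 for each in edgeR, beside 0.0201% of all genes), and 2, Klf6 and Zfp36, had an unadjusted p under 0.05 with lower KO values, which is 7.14% against 1.03% of all genes. The estimate was smaller in size for 25 of the 28 members. The median standard error on the log2 scale was 0.64 over the 30 members tested with all libraries and 0.35 over these 28. Over all genes tested in each fit it was 0.334 and 0.326. On all 7 libraries, with wt_284 kept, DESeq2 and limma-voom with quality weights also called 0 members. EdgeR with no filter on low counts, also on all 7 libraries, called 3, Egr1, Nr4a1 and Klf6, all lower in KO. It called 0.256% of all genes lower.

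**Figure D2:**
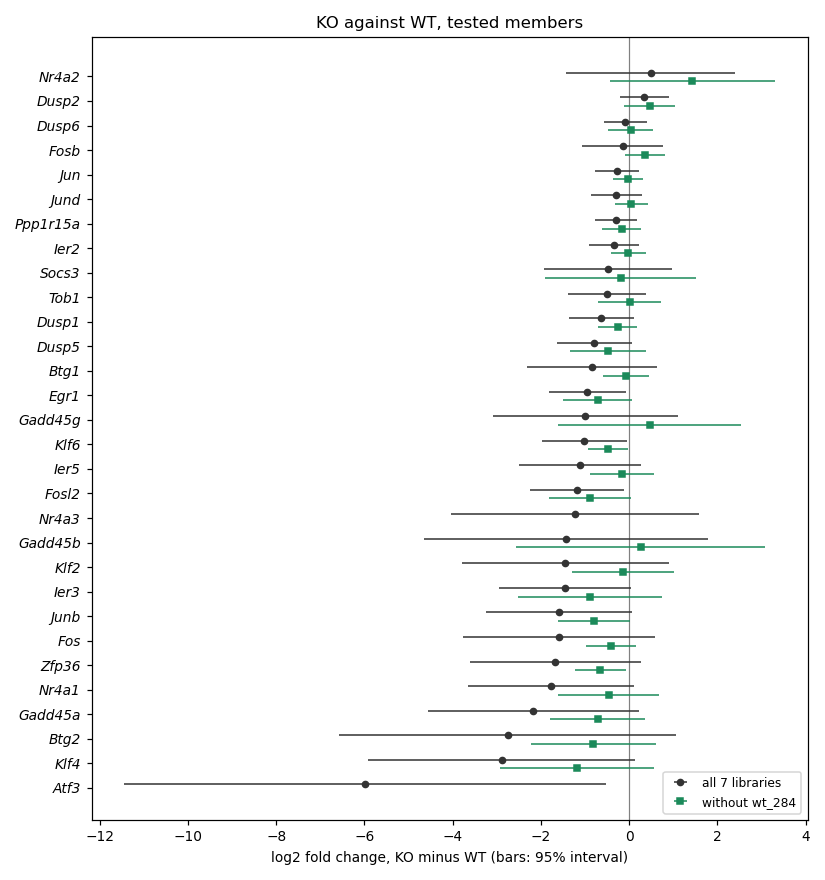
Log2 fold change of each tested member, KO minus WT, with 95% intervals, from all 7 libraries (black circles) and without wt_284 (green squares). Most green squares lie nearer to 0 than the black circles, and Atf3 and Nr4a3 have none because they did not pass the filter without wt_284.

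The AP-1 factors, which pair as FOS-JUN or ATF dimers, held the most abundant member. They summed to 1343 CPM in wt_284, 584 ± 88.1 CPM (SD, n = 3) in the other WT libraries and 530.0 ± 28.7 CPM (SD, n = 3) in KO. Jun (ENSMUSG00000052684.4, chromosome 4 from 95049034 to 95052222, minus strand in GRCm38) stood at 539 CPM in wt_284, at 259.6, 287 and 376 CPM in the remaining WT libraries, and at 268, 309 and 329.6 CPM in KO. Its WT and KO ranges overlapped in full once wt_284 was set apart, with a log2 fold change of -0.27 ± 0.23 (SE), or -0.022 ± 0.16 without wt_284 and a 95% interval from -0.36 to 0.32. Jund, the constitutive JUN partner, stood at 153 CPM in wt_284, at 81.9, 63.7 and 78.5 CPM in the remaining WT libraries, and at 76.6, 83.2 and 72.2 CPM in KO, and Fosb at 119 CPM in wt_284, at 50.5, 34.2 and 46.5 CPM in the remaining WT libraries, and at 51.9, 50.3 and 67.2 CPM in KO. Neither separated the genotypes, and both turned from negative to positive without wt_284, Jund from -0.28 ± 0.27 to 0.053 ± 0.17 and Fosb from -0.15 ± 0.40 to 0.37 ± 0.21. An antisense gene, Gm11175, covers 52.6% of the exon bases of Jund on the opposite strand, and whether counting used the strand is not given, so its reads cannot be assigned with certainty.

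Fos, the classical serum-induced gene, stood at 225 CPM in wt_284, at 32.5, 27.8 and 51.4 CPM in the remaining WT libraries, and at 27.8, 29.7 and 26.4 CPM in KO. It was thus 4.38 times higher in wt_284 than in the next library, while its partner Jun was only 1.43 times higher there. The 3 KO values of Fos lay close together, and ko_314 lay above wt_310, so the genotypes overlapped. Its log2 fold change went from -1.59 ± 0.87 to -0.41 ± 0.26 without wt_284. Junb, an inhibitor of proliferation in stem and myeloid cells, stood at 98.2 CPM in wt_284, at 26.1, 36.7 and 12.3 CPM in the remaining WT libraries, and at 16.8, 9.84 and 16.6 CPM in KO. wt_312 lay among the KO values, and the log2 fold change of Junb went from -1.58 ± 0.70 to -0.79 ± 0.38.

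Fosl2, which encodes FRA2, had one of the smallest p among the members. It stood at 179.8 CPM in wt_284, at 53.8, 116 and 115 CPM in the remaining WT libraries, and at 56.4, 69.6 and 28.7 CPM in KO. wt_310 and wt_312 lay above all KO libraries, but wt_290 lay below 2 of them. The log2 fold change was -1.17 ± 0.45 (edgeR unadjusted p = 0.0353, adjusted p = 0.992) and -0.88 ± 0.40 without wt_284 (unadjusted p = 0.0616, adjusted p = 0.999). Atf3, a stress-induced partner of JUN, was almost confined to wt_284 among these libraries, with 248 counts there, 14, 9 and 0 in the other WT libraries and 1, 0 and 2 in KO. At 0 counts, levels of up to 0.385 CPM in wt_312 and 0.447 CPM in ko_314 cannot be told from 0, by counting error alone. The fitted log2 fold change of Atf3, -5.98 ± 2.31, rests on these low counts and on the prior count.

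The EGR zinc finger factors were represented by Egr1, a gene tied in mice to the retention of quiescent stem cells in the marrow. It stood at 85.7 CPM in wt_284, at 38.4, 73.7 and 41.0 CPM in the remaining WT libraries, and at 46.1, 17.1 and 29.4 CPM in KO. Here wt_284 was only 1.16 times above the next library, wt_310, and ko_306 lay between the WT values. Mean levels were 51.0 ± 19.7 CPM (SD, n = 3) in the other WT libraries and 30.9 ± 14.5 CPM (SD, n = 3) in KO. The log2 fold change was -0.94 ± 0.39 (95% interval -1.82 to -0.06, edgeR unadjusted p = 0.0384, adjusted p = 0.992) and -0.71 ± 0.36 without wt_284 (interval -1.49 to 0.07). Egr2 had 26 counts in wt_284, 12 in wt_290 and 3 in ko_306, and Egr3 had 42, 4 and 2 in the same libraries. Both were at 0 counts in the 4 remaining libraries.

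The NR4A orphan nuclear receptors, which restrain proliferation of stem and myeloid cells, split in their pattern. Nr4a1 stood at 50.7 CPM in wt_284, at 8.12, 7.34 and 6.42 CPM in the remaining WT libraries, and at 7.23, 4.62 and 3.95 CPM in KO, and it was 6.24 times higher in wt_284 than in any other library. Among the others, wt_290 and wt_310 lay above all KO libraries and wt_312 did not. Its log2 fold change went from -1.77 ± 0.82 to -0.46 ± 0.54 without wt_284. Nr4a2 was the most variable member that was detected in all of the 6 other libraries, at 10.2 CPM in wt_284, at 3.59, 2.29 and 0.514 CPM in the remaining WT libraries, and at 5.25, 1.49 and 10.7 CPM in KO. These 6 values spanned 20.8-fold, with ko_320 at the top and wt_312 at the bottom, and the log2 fold change was 0.49 ± 0.88, or 1.44 ± 0.88 without wt_284 and -0.25 without ko_320. Nr4a3 stood at 7.88 CPM in wt_284, at 1.61, 0.458 and 0.514 CPM in the remaining WT libraries, and at 1.03, 0 and 2.29 CPM in KO, with 0 to 18 counts in every library other than wt_284.

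Of the KLF factors, Klf6 was 1 of 2 members whose KO and WT values did not overlap. It stood at 157 CPM in wt_284, at 47.6, 58.1 and 63.2 CPM in the remaining WT libraries, and at 39.4, 47.3 and 34.3 CPM in KO. The lowest WT library, wt_290, lay barely above the highest KO library, ko_314. Means were 56.3 ± 7.95 CPM (SD, n = 3) in the other WT libraries and 40.3 ± 6.55 CPM (SD, n = 3) in KO. The log2 fold change was -1.02 ± 0.42 (edgeR unadjusted p = 0.0408, adjusted p = 0.992), and -0.48 ± 0.21 without wt_284 (unadjusted p = 0.0376, adjusted p = 0.999). Klf2, a factor of quiescence in lymphocytes and endothelium, stood at 61.7 CPM in wt_284, at 9.54, 11.9 and 5.39 CPM in the remaining WT libraries, and at 5.77, 4.03 and 14.6 CPM in KO. Among the 6 other libraries ko_320 was highest and ko_314 lowest, and the log2 fold change went from -1.44 ± 0.98 to -0.13 ± 0.54. Klf4, known in monocytes and as a reprogramming factor, stood at 53.1 CPM in wt_284, at 2.55, 11.0 and 2.31 CPM in the remaining WT libraries, and at 1.98, 1.79 and 3.18 CPM in KO. Apart from wt_284, wt_310 alone was clearly above the rest, and the log2 fold change went from -2.89 ± 1.27 to -1.18 ± 0.82.

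Among the IER genes, Ier2 was one of the steadiest members. It stood at 108 CPM in wt_284, at 58.6, 55.8 and 48.7 CPM in the remaining WT libraries, and at 58.6, 47.4 and 54.8 CPM in KO, so that the 6 other libraries spanned 1.24-fold. The log2 fold change was -0.34 ± 0.26, and -0.016 ± 0.19 without wt_284 with an interval from -0.42 to 0.39. Ier5, which is induced by heat and growth factors, stood at 65.6 CPM in wt_284, at 15.6, 13.8 and 12.8 CPM in the remaining WT libraries, and at 13.0, 11.5 and 13.0 CPM in KO. It was 4.21 times higher in wt_284 than in the next library although the 6 other libraries spanned only 1.36-fold. Ier3, a regulator of survival, stood at 14.5 CPM in wt_284, at 2.93, 4.43 and 7.32 CPM in the remaining WT libraries, and at 3.87, 1.19 and 2.80 CPM in KO, with a log2 fold change of -1.46 ± 0.69, or -0.88 ± 0.77 without wt_284. Ccn1, a matricellular protein of adherent cells, had 2 counts in wt_284, 1 in ko_306 and 0 in the others.

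The DUSP phosphatases dephosphorylate MAP kinases and close the feedback loop. They differed less between wt_284 and the rest than most groups, with sums of 295 CPM in wt_284, 160.4 ± 26.7 CPM (SD, n = 3) in the other WT libraries and 152 ± 16.1 CPM (SD, n = 3) in KO. Dusp1 stood at 194 CPM in wt_284, at 62.5, 99.5 and 109.9 CPM in the remaining WT libraries, and at 74.6, 82.2 and 69.7 CPM in KO, and its log2 fold change was -0.63 ± 0.33, or -0.26 ± 0.20 without wt_284. Dusp6, the ERK-specific cytoplasmic phosphatase, stood at 42.2 CPM in wt_284, at 28.2, 30.6 and 37.1 CPM in the remaining WT libraries, and at 30.0, 38.3 and 29.7 CPM in KO. Its WT and KO ranges overlapped, and the log2 fold change of -0.081 ± 0.23 had a 95% interval from -0.57 to 0.41. Dusp2, a nuclear phosphatase of blood cells, was 1 of 2 members with a positive log2 fold change, at 33.1 CPM in wt_284, at 28.2, 28.0 and 17.9 CPM in the remaining WT libraries, and at 28.0, 40.6 and 33.7 CPM in KO. ko_314 and ko_320 lay above all WT libraries and ko_306 lay below wt_290, and the log2 fold change was 0.35 ± 0.26 (95% interval -0.21 to 0.91). Dusp5, a nuclear ERK phosphatase, ranged from 6.50 to 25.5 CPM with a log2 fold change of -0.79 ± 0.39, and an antisense gene covers 22.1% of its exon bases.

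Zfp36 was the other member without overlap between KO and WT. It encodes tristetraprolin, which binds AU-rich elements and speeds the decay of cytokine and immediate-early transcripts. It stood at 183 CPM in wt_284, at 36.7, 38.1 and 32.0 CPM in the remaining WT libraries, and at 25.2, 27.9 and 14.8 CPM in KO. The lowest WT library was wt_312 and the highest KO library was ko_314, with ko_320 lowest. Means were 35.6 ± 3.20 CPM (SD, n = 3) in the other WT libraries and 22.6 ± 6.93 CPM (SD, n = 3) in KO. The log2 fold change was -1.68 ± 0.79 (edgeR unadjusted p = 0.0785, adjusted p = 0.992) and -0.65 ± 0.28 without wt_284 (95% interval -1.24 to -0.06, unadjusted p = 0.0325, adjusted p = 0.999). The lack of overlap in Klf6 and Zfp36 is 6.67% of the tested members. Every KO library lay below every WT library for 2.43% of all tested genes, and below wt_290, wt_310 and wt_312 for 3.62%, where the members again gave 2.

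Ppp1r15a, which encodes GADD34 and reverses the stress block on translation, was high in all libraries, at 181 CPM in wt_284, at 116, 165 and 120.5 CPM in the remaining WT libraries, and at 85.5, 149 and 122 CPM in KO. wt_284 was only 1.10 times above wt_310, and ko_306 was lowest. Its log2 fold change was -0.29 ± 0.22 with a 95% interval from -0.77 to 0.18. Socs3, an inhibitor of cytokine receptors, was low, at 6.06 CPM in wt_284, at 4.91, 2.90 and 1.93 CPM in the remaining WT libraries, and at 2.93, 2.68 and 2.93 CPM in KO, and the KO values lay inside the WT range.

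The anti-proliferative BTG and TOB genes, which recruit the deadenylation machinery, were among those with the widest distance of wt_284. They summed to 351 CPM in wt_284, 68.7 ± 21.7 CPM (SD, n = 3) in the other WT libraries and 61.8 ± 12.2 CPM (SD, n = 3) in KO. Btg2, a target of p53, stood at 149 CPM in wt_284, at 20.02, 12.8 and 2.95 CPM in the remaining WT libraries, and at 9.64, 2.24 and 8.41 CPM in KO, which places wt_284 7.44 times above wt_290. The 6 other libraries spanned 8.95-fold, with wt_312 next to ko_314 at the bottom. Btg1 stood at 160.0 CPM in wt_284, at 46.1, 48.4 and 29.9 CPM in the remaining WT libraries, and at 36.3, 33.6 and 49.2 CPM in KO, and Tob1 at 41.9 CPM in wt_284, at 19.0, 15.6 and 11.2 CPM in the remaining WT libraries, and at 15.8, 13.9 and 16.6 CPM in KO. For both genes wt_312 was the lowest library and KO values lay inside the WT range or at its edge. The log2 fold changes without wt_284 were -0.81 ± 0.66 for Btg2, -0.062 ± 0.25 for Btg1 and 0.016 ± 0.34 for Tob1, against -2.75 ± 1.52, -0.84 ± 0.61 and -0.51 ± 0.41 with it.

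The GADD45 genes, which encode small stress sensors that act on p38 and on cell cycle kinases, showed the largest distance of wt_284 as a group, 6.21 times the next library in summed CPM. Gadd45a stood at 76.9 CPM in wt_284, at 12.6, 5.50 and 10.7 CPM in the remaining WT libraries, and at 6.54, 4.18 and 6.75 CPM in KO. Without wt_284 its log2 fold change went from -2.17 ± 1.00 to -0.71 ± 0.50, and an antisense gene covers 19.1% of its exon bases. Gadd45b stood at 14.3 CPM in wt_284, at 2.64, 1.53 and 0.128 CPM in the remaining WT libraries, and at 2.50, 2.68 and 0 CPM in KO, and Gadd45g at 16.1 CPM in wt_284, at 2.08, 0.764 and 3.21 CPM in the remaining WT libraries, and at 2.32, 5.07 and 1.02 CPM in KO. Both had at most 34 counts in any library other than wt_284, and both turned positive without it, Gadd45b from -1.42 ± 1.43 to 0.26 ± 1.32 and Gadd45g from -0.99 ± 0.96 to 0.47 ± 0.97.

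**Figure D3:**
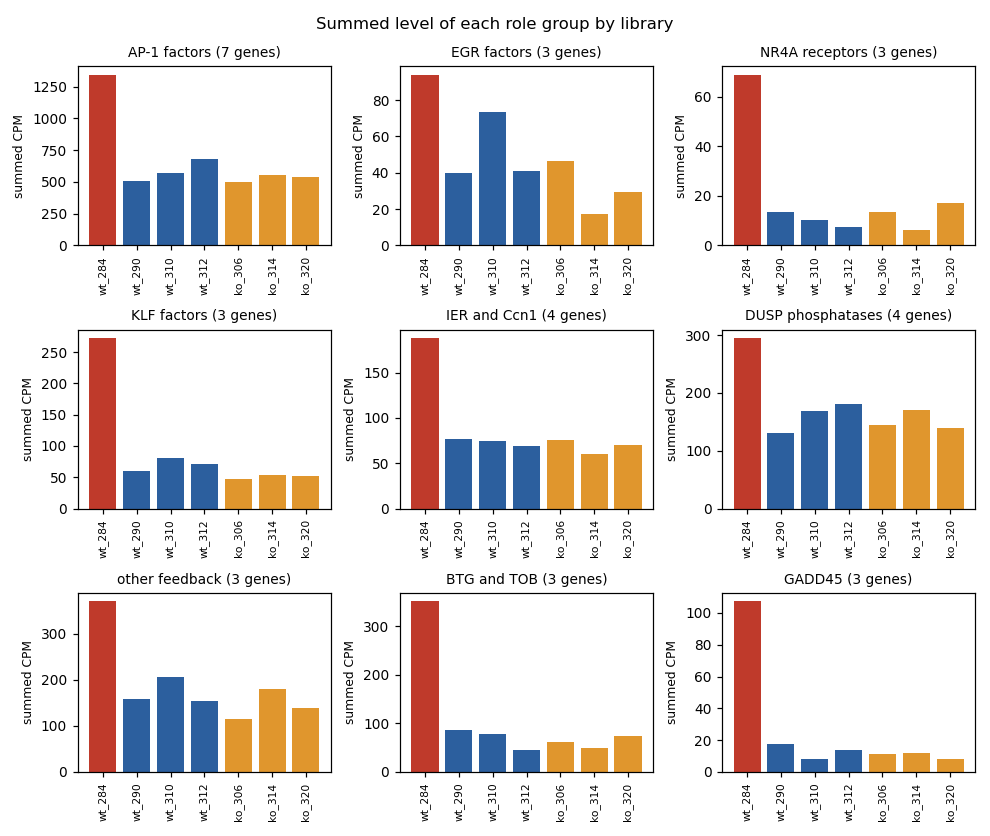
Summed CPM of each role group in each library (bars from 0), with wt_284 in red, other WT libraries in blue and KO libraries in orange. wt_284 is the highest bar in all 9 panels, by 1.28 times the next library for the EGR factors and by 6.21 times for the GADD45 genes.

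The distance of wt_284 thus varied widely between members. As a ratio to the highest other library it ran from 0.816 for Dusp2 and 0.952 for Nr4a2 through 1.10 for Dusp6, 1.10 for Ppp1r15a and 1.16 for Egr1 to 6.12 for Gadd45a, 6.24 for Nr4a1, 7.44 for Btg2 and 21.9 for Atf3. Of these, Atf3 did not pass the filter without wt_284. In the 6 other libraries the highest value was found in wt_310 for 7 members, in wt_290 and wt_312 for 6 each, in ko_314 and ko_320 for 5 each and in ko_306 for 1. ko_314 was the lowest of all libraries for 11 members and wt_284 for 0. ko_306, with a summed level near the other KO libraries, was thus seldom at either end.

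**Figure D4:**
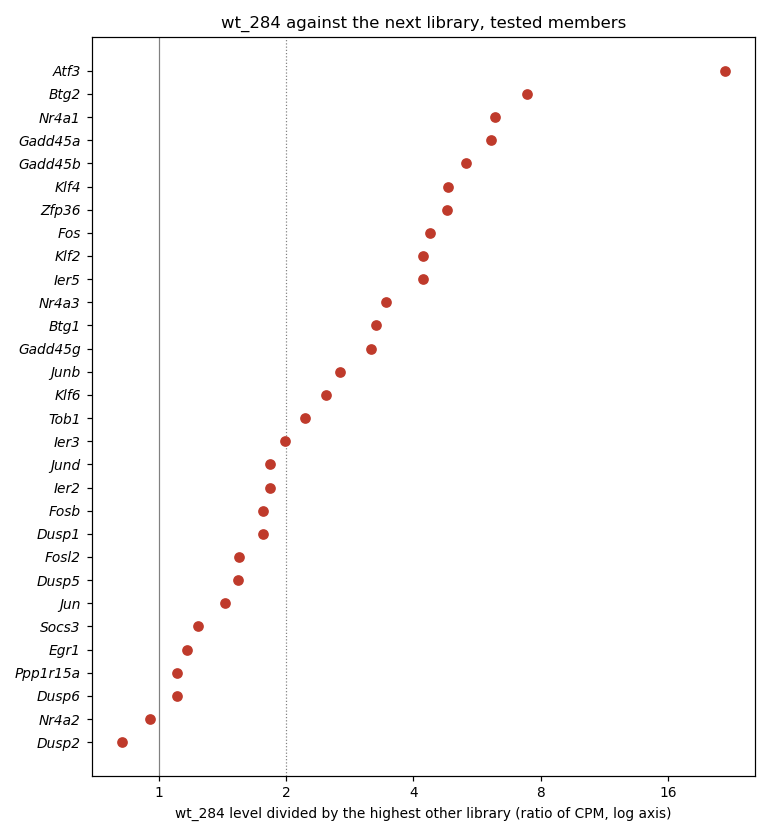
Level of each tested member in wt_284 divided by its level in the highest other library (ratio of CPM, log axis), with a solid line at 1 and a dotted line at 2. The 16 genes to the right of the dotted line run from Tob1 to Atf3, and Dusp2 and Nr4a2 lie left of 1.

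Compared per length of annotated exon, in TPM (counts per kilobase, scaled to a total of 1000000 in each library), Jun was the most abundant transcript of the group. Over the 6 libraries other than wt_284 it stood at 192 ± 27.0 TPM (SD, n = 6), followed by Jund at 91.9 ± 10.2 TPM, Ppp1r15a at 86.2 ± 17.97 TPM, Ier2 at 71.4 ± 6.66 TPM and Dusp1 at 50.5 ± 11.1 TPM. Jund and Ppp1r15a do not differ beyond their spread, nor do Dusp2, at 29.6 ± 7.72 TPM, and Fos, at 27.9 ± 8.17 TPM. In wt_284 the order changed: Fos stood at 145 TPM there, second to Jun at 256 TPM, ahead of Jund at 139 TPM.

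Promoter sequences of RefSeq (GRCm38.p6) were available for 30 of the 33 members (all but Egr1, Egr3 and Ier2) and are shown for 5 that hold a match and differ in their distance of wt_284. The window searched ran from 250 bases before to 50 bases after each transcript start, on both strands. The 200 bases before the start are printed 5′ to 3′ on the gene's strand, and capitals mark a cyclic AMP response element (CRE, TGACGTCA), a CArG box, which SRF binds, or a TATA box (TATAAA).
Fos: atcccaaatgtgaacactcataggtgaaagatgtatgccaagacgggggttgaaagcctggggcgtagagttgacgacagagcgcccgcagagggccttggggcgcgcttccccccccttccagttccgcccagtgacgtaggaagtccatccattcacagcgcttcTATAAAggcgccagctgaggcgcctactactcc
Zfp36: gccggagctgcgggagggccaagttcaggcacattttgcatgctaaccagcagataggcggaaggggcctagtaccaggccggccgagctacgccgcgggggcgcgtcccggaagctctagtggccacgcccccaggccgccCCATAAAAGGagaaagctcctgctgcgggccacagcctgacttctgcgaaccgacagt
Dusp5: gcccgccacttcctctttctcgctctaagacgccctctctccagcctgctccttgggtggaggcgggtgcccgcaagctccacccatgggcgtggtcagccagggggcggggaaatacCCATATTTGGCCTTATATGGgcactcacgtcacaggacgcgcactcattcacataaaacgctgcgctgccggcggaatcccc
Btg2: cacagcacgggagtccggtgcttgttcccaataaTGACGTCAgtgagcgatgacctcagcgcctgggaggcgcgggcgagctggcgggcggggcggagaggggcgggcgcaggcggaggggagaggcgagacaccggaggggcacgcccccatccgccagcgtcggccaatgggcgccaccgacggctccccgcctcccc
Ppp1r15a: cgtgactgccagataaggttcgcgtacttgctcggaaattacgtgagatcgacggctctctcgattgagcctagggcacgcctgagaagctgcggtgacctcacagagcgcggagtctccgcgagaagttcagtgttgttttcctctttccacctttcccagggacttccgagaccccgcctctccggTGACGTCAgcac
These lie at chr12:85473690-85473889 on the plus strand for Fos, chr7:28379229-28379428 on the minus strand for Zfp36, chr19:53528945-53529144 on the plus strand for Dusp5, chr1:134079156-134079355 on the minus strand for Btg2 and chr7:45526269-45526468 on the minus strand for Ppp1r15a. A CRE was matched in Btg2, Dusp1 and Ppp1r15a, 10% of the members, against 2.03% of all 27025 genes in the table. CArG boxes were matched in Zfp36, Egr2 and Dusp5, also 10%, against 1.81%, and the 2 matches of Dusp5 adjoin. TATA boxes were matched in 9 members, 30% against 15.7%, from 164 bases before to 15 bases after the start. The AP-1 motif (TGAGTCA or TGACTCA, in 5.95% of all genes) and the EGR motif (GCGTGGGCG, in 0.707%) were matched in 0 members. Matches of different motifs did not overlap in any member, and a match says only that these letters are present. Sites more than 250 bases before the start were not searched, so a gene without a match, such as Fos for the CArG box, may hold one there. Genes with the same motif differed in their distance of wt_284. Of those with a CRE, Btg2 stood 7.44 times above the next library and Ppp1r15a 1.10 times, and of those with a CArG box, Zfp36 stood 4.80 times and Dusp5 1.54 times above it.

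Other genes of the response were also tested. Of 46 further early response genes, 39 were tested, 0 passed in edgeR, 32 fold changes were negative and 7 positive, and their log2 median was -0.37, or -0.089 over 37 genes without wt_284. Over all tested genes 52.4% of fold changes were negative. wt_284 was highest for 23 of the 39, against 23.1% of all tested genes. It stood at least 2 times above every other library for 12, against 4.64%. Phlda1, part of the 23, and Fosl1, part of the 23 and of the 12, did not pass the filter without wt_284. Their high level in wt_284 was thus favoured by the filter. The 4 of the 39 with the smallest p were Sik1, a CREB-induced kinase, at -0.70 ± 0.24, Phlda1 at -2.82 ± 1.06, Klf9 at -0.55 ± 0.24 and Tob2 at -0.57 ± 0.25. Each had an adjusted p of 0.992. Phlda1 stayed below the filter level, 1.24 CPM, in KO (0.431, 1.19 and 0.127 CPM), so its direction was set by the filter. Sik1 stood at 108 CPM in wt_284, at 63.2, 87.0 and 83.1 CPM in the remaining WT libraries, and at 65.8, 55.8 and 35.5 CPM in KO, and 1 KO library overlapped the WT range. Without wt_284 it was at -0.56 ± 0.23, Klf9 at -0.65 ± 0.24 and Tob2 at -0.45 ± 0.25.

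Upstream kinases and transcription factors carry the signal to these promoters. All 34 genes of that list were tested, 0 passed, 25 fold changes were negative and 9 positive, and their log2 median was -0.11, or -0.075 without wt_284. Negative values made up 52.4% of all tested genes. wt_284 was highest for 17 of the 34, against 23.1% of all tested genes, and 2 times above every other library for 0, against 4.64%. Mapkapk2, the p38-activated kinase, had -0.67 ± 0.29, Hras -0.51 ± 0.29, Mapk14, which encodes p38 alpha, -0.30 ± 0.18 and Map2k2 -0.27 ± 0.16. Without wt_284 these were -0.35 ± 0.21 for Mapkapk2, -0.43 ± 0.31 for Hras, -0.24 ± 0.18 for Mapk14 and -0.28 ± 0.17 for Map2k2.

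Heat-shock genes known to respond to dissociation summed to 10439 CPM in wt_284, from 7464 to 8368 CPM in the remaining WT libraries and from 7487 to 8164 CPM in KO. Of 14 tested, 0 passed, 11 fold changes were negative and 3 positive, with a log2 median of -0.097, or 0.0055 without wt_284. With all libraries, 52.4% of all tested genes had negative fold changes. Hspa1b, an inducible chaperone that shares sequence with its near-identical copy Hspa1a, stood at 238 CPM in wt_284, at 35.8, 38.5 and 8.22 CPM in the remaining WT libraries, and at 13.2, 33.3 and 8.41 CPM in KO, and the split of reads between the copies is uncertain. Hsph1 had a log2 fold change of -0.37 ± 0.26 and Bag3 of -0.34 ± 0.26.

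Summed heat-shock genes and neutrophil and monocyte, erythroid, and mast cell and basophil markers were highest in the same library as the early response genes. B-lineage markers (10 genes, 3 tested) were too, with sums of 98.2 CPM in wt_284 and at most 17.6 CPM in any other library. T and NK markers (7 genes, 0 tested) summed to 29.6 CPM in wt_284 and at most 5.96 CPM in any other library. Endothelial and stromal markers (9 genes) were lowest in wt_284, at 108 CPM. Megakaryocyte markers (6 genes) were not highest there either. They summed to 101 CPM in wt_284, 54.5 to 149 CPM in the remaining WT libraries and 88.2 to 122 CPM in KO. Single heat-shock genes were highest in wt_284 for 9 of 14 tested, against 23.1% of all tested genes. For 2 of the 14, wt_284 stood at least 2 times above every other library, against 4.64% of all tested genes. The part of these lists in the early response values was not tested. Without wt_284, 0 of 18 tested neutrophil and monocyte markers passed in edgeR, but 17 of them had negative log2 fold changes, with a median of -1.70. Erythroid markers had negative values for 12 of 13 in that fit (median -1.03) and mast cell and basophil markers for 5 of 5 (median -1.71), with 0 passing in either list, beside 20 of 28 early response genes. Negative values made up 49.9% of all genes tested in that fit. Megakaryocyte markers had 1 negative and 3 positive values there (median 0.34), and B-lineage markers 1 negative and 1 positive. Lcn2, a neutrophil granule gene, was at 0 in ko_314 and ko_320, as was Ly86. In ko_306 Lcn2 stood at 31.0 CPM, above wt_312 at 4.37 CPM. Cd14, a monocyte receptor, was at 0 in wt_312 and ko_314. These zeros did not hold for the whole list: Itgam stood at 36.5, 50.9 and 22.5 CPM in KO and at 49.7, 39.9 and 8.73 CPM in the WT libraries other than wt_284.

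**Figure D5:**
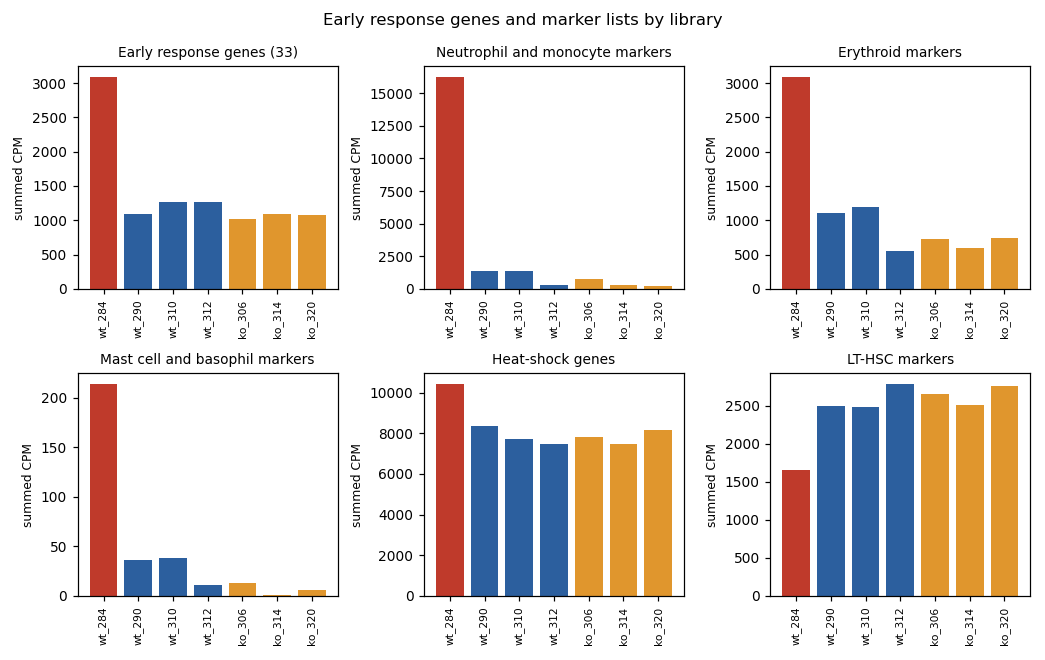
Summed CPM by library (bars from 0) of the 33 early response genes and of 5 other lists, with wt_284 in red, other WT libraries in blue and KO libraries in orange. wt_284 is the highest bar for the early response genes, the neutrophil and monocyte, erythroid, and mast cell and basophil markers and the heat-shock genes. It is the lowest for the LT-HSC markers.

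For 6 of the 30 tested members, Jun, Jund, Ier2, Dusp2, Dusp6 and Ppp1r15a, a difference of 2-fold or more in either direction fell outside the 95% interval, and without wt_284 this held for 12 of 28. For each of the remaining members the interval included a 2-fold difference between KO and WT.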

How the data were processed

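Gene expression was measured by RNA sequencing of sorted LT-HSCs, 1 mouse per library, with a stranded total RNA kit for small inputs, per the labels' protocols. The labels name the molecule as polyA RNA. Values in the deposited table are estimated counts, summed by gene and stored as whole numbers, with no scaling by the authors seen in the values. Of tools, cutadapt and Salmon are listed, per the submitters' processing notes. Neither the annotation, nor the step from transcripts to genes, nor the strand setting is given in the sources used here. Each of the 7 value columns carries the name of 1 sample.

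Genotypes were tested in R 4.3.3 using edgeR 4.0.16: TMM scaling, the filterByExpr filter and the robust quasi-likelihood test, with Benjamini-Hochberg adjustment over all tested genes and a threshold of 0.05. Each standard error was obtained from the estimate and the square root of its F statistic. Libraries are separate mice. The labels name no batch, litter or sort day, and mouse numbers pair no samples. The fit was tested on simulated data with known changes. No simulated library stood apart as wt_284 does, so the simulation does not cover that feature of these data. Positions and exon lengths come from GENCODE M21 (GRCm38), in which 99.5% of identifiers were found when versions were ignored, and 31 of the 33 members with the same version. A count of 0 allows up to 3 counts, for counting error only.

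Values in every library are given by a rule, which takes 28 members: unadjusted p under 0.05 with or without wt_284, the 5 highest levels, the 5 highest ratios of wt_284 to the next library, and the 3 highest levels of each role. Fos, Fosb, Junb, Dusp5 and Ccn1, the 5 promoters shown, the further early response gene Fosl1, and the markers Lcn2, Cd14, Ly86 and Itgam were added after their values were seen. Up to 4 genes of each other pathway list, those with the smallest p, are named, and 1 such gene is not reported here. Members and lists were chosen with earlier results of these data known, so no test over a list was made. Alternatives were DESeq2 1.42.0, limma-voom (limma 3.58.1) with quality weights, RLE and upper-quartile normalization, other filters, a fit that is not robust, mice above 300 only, and leaving out each mouse.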

Additional observations from a re-analysis of the deposited data

Results flagged for a closer look

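In 15 of the 33 members, wt_284 was separated from the other 3 WT libraries by a gap that took up more of the whole WT range in CPM than the 95% limit of Dixon's test for 4 samples. Chance marks about 1 in 20 groups where values are normally distributed, which was not checked. The share of all genes marked in this way was not computed, so the 15 cannot be set against it. wt_284 was the highest library for 23.1% of all tested genes. The gap was 0.880 of the range for Fos, 0.954 for Atf3, 0.926 for Egr3, 0.962 for Nr4a1, 0.845 for Nr4a3, 0.884 for Klf2, 0.858 for Klf6 and 0.831 for Ier2. It was 0.948 for Ier5, 1.00 for Ccn1, 0.960 for Zfp36, 0.858 for Btg1, 0.883 for Btg2, 0.901 for Gadd45a and 0.841 for Gadd45g. For Ccn1 the value rests on 2 counts. The 15 values come from the same library and are not independent of each other. KO, with 3 libraries, was not tested in this way.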

How the results depend on the processing

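The count of members past the threshold was 0 in edgeR, in DESeq2, in limma-voom, and in all fits that left out 1 mouse, and 3 with no filter. Of the 30 members tested in edgeR, DESeq2 gave no adjusted p for Atf3 and Nr4a1. Over all genes the count was 1 in the edgeR fit of all libraries, 13 in DESeq2, 81 with no filter, 0 in limma-voom and 7 with mice above 300, and 1 to 3 without any 1 mouse (3 without wt_284 or ko_306, 2 without wt_290 or ko_314). The KO sum of the members was 759 CPM without Jun, the most abundant, and 1042 to 1085 CPM without any 1 mouse. The WT sum was 1204 to 1872 CPM without any 1 mouse, the lowest without wt_284. With plain library totals wt_284 was highest for 26 members (16.3% of all genes) and 2 times above the rest for 15 (3.71%).

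Of 443 member values under the alternatives, 421 kept direction and side, 3 became calls with no filter, and 19, in 10 members, changed sign. The fit of mice above 300 left out wt_284 and wt_290. In it the log2 fold changes were 0.49 for Fosb, 0.13 for Jund, 0.045 for Ier2, 0.24 for Socs3, 0.022 for Btg1, 0.21 for Tob1, 1.07 for Gadd45b and 0.49 for Gadd45g. With limma-voom they were 0.069 for Fosb, 0.048 for Dusp6 and 0.026 for Gadd45g. Without any 1 mouse they ran from -0.35 to 0.37 for Fosb, -0.43 to 0.053 for Jund, -0.25 to 1.44 for Nr4a2, -0.19 to 0.033 for Dusp6, -0.70 to 0.016 for Tob1, -1.81 to 0.26 for Gadd45b and -1.67 to 0.47 for Gadd45g. Without wt_284, 6 members turned from negative to positive and 0 from positive to negative. The cause of these changes was not tested. No paired analysis was possible because mouse numbers are unique.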
